A study of Mus musculus with 6 samples.

Results

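Retinoic acid is made inside cells from vitamin A (retinol) and acts in the nucleus. Retinol is taken up, oxidised to retinaldehyde and then to retinoic acid, carried by small cytoplasmic binding proteins, and broken down by cytochrome P450 enzymes of the CYP26 family. Retinoic acid receptors (RARs) bind DNA as dimers with retinoid X receptors (RXRs) and raise transcription of their target genes when the ligand is bound; in squamous epithelia this pathway is known for its control of differentiation. The genes described here are 9 of the 55418 symbols in the count table: the binding protein genes Crabp1 and Crabp2, the uptake gene Stra6, the synthesis gene Rdh10, the breakdown gene Cyp26b1, and the receptor genes Rara, Rarb, Rarg and Rxra. They were chosen by symbol, with earlier results of the same control and knockout-labelled libraries known. Their differences between the groups are therefore given as a description: no p is printed for them, and their calls in the fit over all genes are counted only beside the share of all genes called.

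RNA came from MOC2, a papillomavirus-negative mouse head and neck squamous carcinoma line, in 3 libraries labelled control CRISPR and 3 labelled EphA4 knockout. The knockout-labelled cells are a single clone, H3, so that differences of this clone from the control cells and differences due to the edit cannot be told apart; whether the control cells are a clone is not stated. All cells were grown untreated in medium with serum, EGF, hydrocortisone and insulin, were harvested 2 passages after thawing, and carry 1 batch label. Polyadenylated RNA was sequenced to 35115926 to 41775031 counts per library.

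Epha4, the targeted receptor tyrosine kinase gene, was not lower in the knockout-labelled libraries: it had 51.4, 59.8 and 54.0 CPM (read counts relative to library size, scaled by TMM factors) in control, against 97.4, 103 and 98.1 CPM. Higher and lower below therefore compare libraries by their label and do not stand for a loss of Epha4 transcript. EphA4 knockout replicate 3 stood apart from its group, with a chi-square per degree of freedom of 28.5 to 29.7 against the other 2, which differed from each other by 4.57. The simple epithelial genes Epcam, Krt8 and Krt18 were abundant in both groups, the lowest group mean being 627 ± 15.9 CPM (SD, n = 3) for Epcam in the knockout-labelled libraries. The basal squamous genes Krt5 and Trp63 had no more than 2 counts in any library. Krt14, also a basal gene, had counts, at 3.72 ± 0.258 CPM in control and 1.83 ± 0.599 CPM in the knockout-labelled libraries (SD, n = 3 each). Of the other squamous keratin genes listed, Krt17 fell from 0.754 ± 0.169 to 0.274 ± 0.116 CPM. Krt6a rose from 0.271 ± 0.0710 to 1.91 ± 0.0191 CPM (SD, n = 3 each). Fibroblast markers moved with the groups: the sum of 7 genes was 48.0 to 51.4 CPM in control and 1.93 to 2.03 CPM in the knockout-labelled libraries. All 5 tested members were lower, as were 38.8% of all tested genes. Among the 5, Col1a1, Col3a1, Pdgfrb and Dcn passed the filter on low counts only through their control level and so had to differ. Lum had 0 counts in every library. Col1a2, too scarce to be tested, went the other way, with 4, 0 and 1 counts in control and 8, 11 and 10 counts in the knockout-labelled libraries. Of 5 leukocyte markers Cd3e, Itgam and Adgre1 had 0 counts in every library, and the sum of the list was 0.0283 to 0.288 CPM in control and 0.327 to 0.615 CPM in the knockout-labelled libraries, with no member tested. The sum of 4 endothelial markers was 1.10 to 1.46 CPM in control and 0.587 to 1.06 CPM in the knockout-labelled libraries, and the 1 tested, Cdh5, did not pass (adjusted p = 0.15 in edgeR). Of the 9 squamous and epithelial markers 7 were tested, 4 being higher and 3 lower. Krt17 passed the filter only through its control level and Krt6a only through its level in the knockout-labelled libraries. The part of the fibroblast markers in the results below was not tested. In bulk RNA, fewer cells expressing a gene and less RNA per cell cannot be told apart.

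Of the 9 retinoid genes, 8 were lower and 1, Rdh10, was higher in the knockout-labelled libraries. The groups did not overlap for any of the 9. All 9 passed the filter on low counts, and edgeR's quasi-likelihood test called all 9 at an adjusted p under 0.05, as it did 71.5% of the 15199 genes tested, 38.8% being lower and 32.7% higher. Separate groups were found for 76.1% of those genes, 41.4% being lower and 34.6% higher. The median log2 fold change was -1.82 over the 9 genes and -0.04 over all tested genes. Setting the genes at 0 counts to their bound could not change the first median, as they stay below the middle value. A gene that passed the filter only through its control level had to differ, and the genes were chosen with this contrast known, so nothing further is read from these counts.

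**Figure D1:**
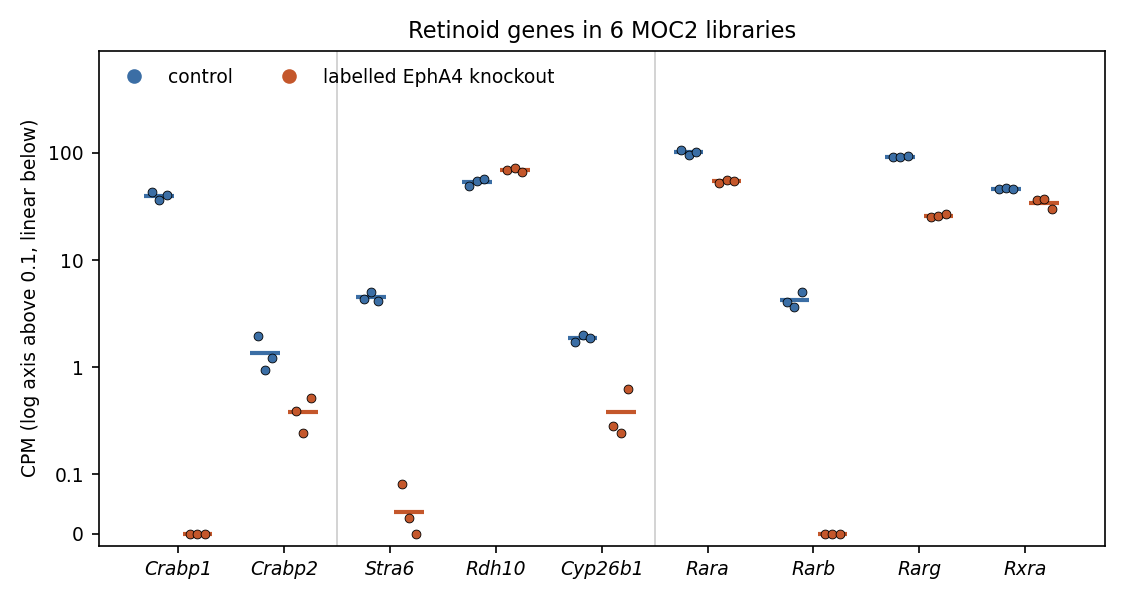
Level of each of the 9 retinoid genes in every library, in TMM-scaled CPM on an axis that is logarithmic above 0.1 CPM and linear below, with 1 point per library and a line at the group mean (n = 3). Crabp1 and Rarb lie at 0 in all 3 knockout-labelled libraries, Stra6 lies near 0, and Rdh10 alone is higher there.

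The sequences that lead into the receptor results are those around the start of Rarb, since Rarb is both a receptor of retinoic acid and a textbook target of it. Retinoic acid receptors are known to bind direct repeats of a short site (here AGGTCA or GGGTCA or AGTTCA or GGTTCA), separated by 5, 2 or 1 bases. Promoter windows of RefSeq (build GRCm38.p6, 250 bases before to 50 after each start), a different build from the GRCm39 named for the counts, were matched by symbol for 7 of the 9 genes. Both strands were searched. Repeats with a spacer of 5 bases occurred in 32 of 32851 windows, or 0.0974%, and among the 7 genes only in Rarb; repeats with spacers of 2 and 1 bases occurred in 0.268% and 0.222% of windows and in none of the 7. The Rarb repeat, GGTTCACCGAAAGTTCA, spans bases -53 to -37 before the start. Among the other retinoid genes listed, a repeat with a spacer of 5 bases was found in Cyp26a1, which encodes a retinoic acid hydroxylase, where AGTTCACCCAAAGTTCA lies on the opposite strand at bases -32 to -16. One with a spacer of 1 base, AGGTCAAAGGTCA, was found in Bco1, which encodes an enzyme that cleaves beta-carotene to retinaldehyde, on the opposite strand at bases -56 to -44. The last 100 bases before each start are shown 5′ to 3′ on the gene's strand, with the repeat in capitals, and those of Crabp1 beside them because Crabp1 and Rarb are the 2 genes at 0 counts. The stretches are chr14:16575477-16575576 on the minus strand for Rarb, chr19:37697708-37697807 on the plus strand for Cyp26a1 and chr9:54764648-54764747 on the plus strand for Crabp1.
Rarb: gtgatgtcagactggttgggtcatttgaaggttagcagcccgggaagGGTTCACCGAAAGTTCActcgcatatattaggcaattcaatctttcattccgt
Cyp26a1: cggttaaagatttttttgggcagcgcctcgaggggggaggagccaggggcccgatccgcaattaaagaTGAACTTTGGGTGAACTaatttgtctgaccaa
Crabp1: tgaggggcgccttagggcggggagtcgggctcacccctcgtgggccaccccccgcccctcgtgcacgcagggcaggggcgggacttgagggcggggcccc
The match describes these letters only, and binding of a receptor was not measured. No spaced repeat in the Crabp1 window says only that these letters are not in it.

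The binding protein genes were both lower, from very different levels. Crabp1 encodes a cytoplasmic protein that binds retinoic acid with high affinity and is linked to its breakdown. It lies on chromosome 9 and had 1599, 1285 and 1686 counts in the control libraries, or 43.1, 36.4 and 40.5 CPM, and 0 counts in each knockout-labelled library. A count of 0 over the 3 libraries allows up to 0.0273 CPM, taking a floor of 3 counts over the group, which makes Crabp1 at least 1472-fold lower. The control libraries were close to each other, with a coefficient of variation of 8.49%.

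Crabp2, on chromosome 3, encodes the related protein that carries retinoic acid to the receptors in the nucleus. It was scarce throughout, at 72, 33 and 51 counts in control (1.94, 0.935 and 1.22 CPM) and 14, 9 and 19 counts in the knockout-labelled libraries (0.392, 0.244 and 0.517 CPM). Every knockout-labelled library was below every control library, with a log2 fold change of -1.82 (SE 0.45). Control replicate 1 was the highest library and the coefficients of variation were 38.0% and 35.6%, so that the size of the difference is less well determined than for Crabp1. Levels of different genes were compared as CPM divided by transcript length in kilobases (RPKM), with the longest coding transcript in GENCODE M21. On this scale Crabp1 exceeded Crabp2 in control, at 49.9 ± 4.23 against 1.47 ± 0.557 RPKM (SD, n = 3 each).

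Fabp5, a gene outside the 9 whose protein is known to carry retinoic acid to the nuclear receptor PPAR-delta, went the other way. It had 80.5, 84.9 and 85.2 CPM in control and 215, 222 and 199 CPM in the knockout-labelled libraries. The rise was 1.34 on the log2 scale, SE 0.05 and adjusted p = 4.1e-08 (edgeR), with no overlap of the groups. In RPKM, Fabp5 was at 84.6 ± 2.66 in control and 215 ± 11.9 in the knockout-labelled libraries (SD, n = 3 each), where Crabp2 was at 0.413 ± 0.147 and Crabp1 at 0. Ppard, which encodes PPAR-delta, fell from 93.3 ± 0.440 to 47.8 ± 1.35 CPM (SD, n = 3 each; log2 fold change -0.97, adjusted p = 1.2e-07 in edgeR). Fabp5 has close sequence relatives in the genome, so some of its reads may be shared with them.

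**Figure D2:**
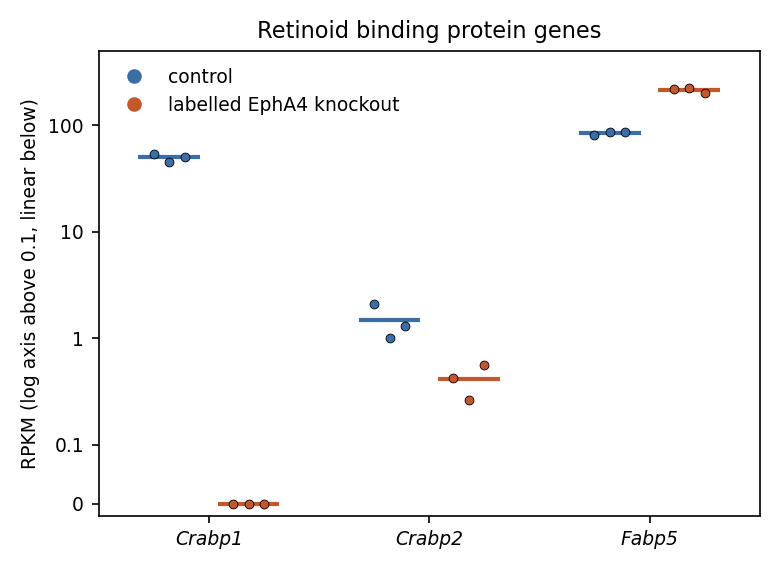
Level of 3 retinoid binding protein genes per transcript length, in RPKM on an axis that is logarithmic above 0.1 and linear below, with 1 point per library and a line at the group mean (n = 3). Fabp5 is the highest gene in both groups and is higher in the knockout-labelled libraries, at 215 against 84.6 RPKM, while Crabp1 goes from 49.9 RPKM to 0.

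The uptake gene was almost absent from the knockout-labelled libraries. Stra6, on chromosome 9, encodes the membrane receptor through which retinol enters cells from its plasma carrier. It had 159, 178 and 172 counts in control (4.29, 5.04 and 4.13 CPM) and 3, 1 and 0 counts in the knockout-labelled libraries. By library totals the ratio of control to knockout-labelled counts was 123, with an exact 95% binomial interval of 47.7 to 453 that covers counting error only. The fitted log2 fold change of -6.81 (SE 0.62) became -8.03 without EphA4 knockout replicate 1 and -6.21 without EphA4 knockout replicate 3. Rbp4, the gene of the plasma carrier itself, had 57, 25 and 39 counts in control and none in the knockout-labelled ones, which makes it at least 39.0-fold lower; as it passed the filter only through its control level, no p is given.

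The synthesis gene was the only one of the 9 that was higher. Rdh10, on chromosome 1, encodes the dehydrogenase that turns retinol into retinaldehyde, the first of the oxidation steps. It had 49.4, 54.2 and 56.8 CPM in control and 68.9, 72.6 and 67.0 CPM in the knockout-labelled libraries. The groups were separate but near each other, with a 1.30-fold difference (log2 fold change 0.38, SE 0.06). The next oxidation step had no matching increase among the genes measured. Aldh1a1 and Aldh1a3 encode retinaldehyde dehydrogenases that form retinoic acid, and both fell. Aldh1a1 went from 1.62 ± 0.245 to 0.200 ± 0.139 CPM and Aldh1a3 from 3.47 ± 0.830 to 0.329 ± 0.373 CPM (SD, n = 3 each). No p is given, as both passed the filter only through their control level. Aldh1a3 differed between the knockout-labelled libraries, with 9, 0 and 27 counts, and its log2 fold change of -3.39 became -4.71 without EphA4 knockout replicate 3 and -2.79 without EphA4 knockout replicate 2. That of Aldh1a1, -2.99, became -3.62 without EphA4 knockout replicate 3. Aldh1a2, the third gene of this kind, had 0 counts in every library.

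The reverse reaction, from retinaldehyde back to retinol, is carried out by the reductase encoded by Dhrs3, which is known to work in a complex with RDH10 and to be raised by retinoic acid. Dhrs3 had 795, 630 and 751 counts in control and 6, 7 and 8 counts in the knockout-labelled libraries. It fell from 19.1 ± 2.03 to 0.192 ± 0.0250 CPM (SD, n = 3 each), 97.8-fold (log2 fold change -6.61, SE 0.19). As Dhrs3 passed the filter only through its control level, no p is given. In RPKM, Rdh10 and Dhrs3 were at 14.9 ± 1.04 and 8.17 ± 0.869 in control and at 19.4 ± 0.791 and 0.0821 ± 0.0107 in the knockout-labelled libraries (SD, n = 3 each).

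Breakdown genes were scarce in both groups. Cyp26b1, on chromosome 6, encodes a hydroxylase that inactivates retinoic acid. It had 64, 70 and 78 counts in control (1.73, 1.98 and 1.87 CPM) and 10, 9 and 23 counts in the knockout-labelled libraries (0.280, 0.244 and 0.626 CPM). The highest knockout-labelled library was replicate 3, still below every control library, and the log2 fold change of -2.27 (SE 0.43) became -2.76 without it. Cyp26a1, whose promoter is shown above, did not pass the filter on low counts, with 5, 8 and 10 counts in control and 0, 0 and 2 counts in knockout-labelled cells.

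All 4 receptor genes among the 9 were lower, by unequal amounts. Rara, on chromosome 11, had 106, 96.6 and 101 CPM in control and 52.6, 56.2 and 55.3 CPM in the knockout-labelled libraries, 1.85-fold lower (log2 fold change -0.89, SE 0.05). Rarg, on chromosome 15, encodes the RAR that predominates in skin. It had 91.2, 90.9 and 94.1 CPM in control and 25.3, 25.9 and 26.7 CPM in the knockout-labelled libraries, 3.54-fold lower (log2 fold change -1.82, SE 0.05). Within groups, the coefficients of variation of these 2 genes were 1.95% to 4.71%.

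Rarb, on chromosome 14, is the RAR gene with the repeat shown above and is known to be silenced in many carcinomas. It had 150, 130 and 211 counts in control (4.05, 3.68 and 5.06 CPM) and 0 counts in each knockout-labelled library, at least 158-fold lower against the floor of 3 counts over the group. Exons of Rarb overlap those of Top2b and Gm48162 on the other strand, and the strand setting of the counting is not given in the sources used here, so Rarb reads cannot be assigned with certainty. Top2b itself had 2670 to 3004 counts in the knockout-labelled libraries that had none for Rarb.

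Rxra, on chromosome 2, encodes a common dimer partner of the RARs. It showed the smallest fold difference of the 4 receptor genes, at 45.7, 47.0 and 46.0 CPM in control and 36.0, 37.5 and 29.8 CPM in the knockout-labelled libraries (log2 fold change -0.43, SE 0.08). EphA4 knockout replicate 3 was the lowest library, and without it the log2 fold change was -0.27. The other RXR gene with counts, Rxrb, fell from 61.0 ± 5.04 to 41.0 ± 1.87 CPM (SD, n = 3 each; log2 fold change -0.57, adjusted p = 7.7e-05 in edgeR), and Rxrg had 0 counts in every library.

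Per transcript length, Rara and Rarg lay at 28.5 to 31.4 and 30.8 to 31.9 RPKM in control, and their ranges overlapped. In the knockout-labelled libraries they were apart, at 15.5 to 16.6 and 8.57 to 9.04 RPKM. Of the summed RPKM of the 3 RAR genes, Rara made up 47.9% ± 1.27 in control and 64.7% ± 0.567 in the knockout-labelled libraries, Rarg 49.9% ± 1.18 and 35.3% ± 0.567, and Rarb 2.19% ± 0.330 and 0% (SD, n = 3 each). The sum itself was 62.5 ± 1.72 and 25.0 ± 0.739 RPKM. Reads were therefore fewer for the RAR genes together, and the remaining ones came more from Rara. The sums and shares rest on the longest transcript of each gene, and the shares within a group depend on that choice.

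**Figure D3:**
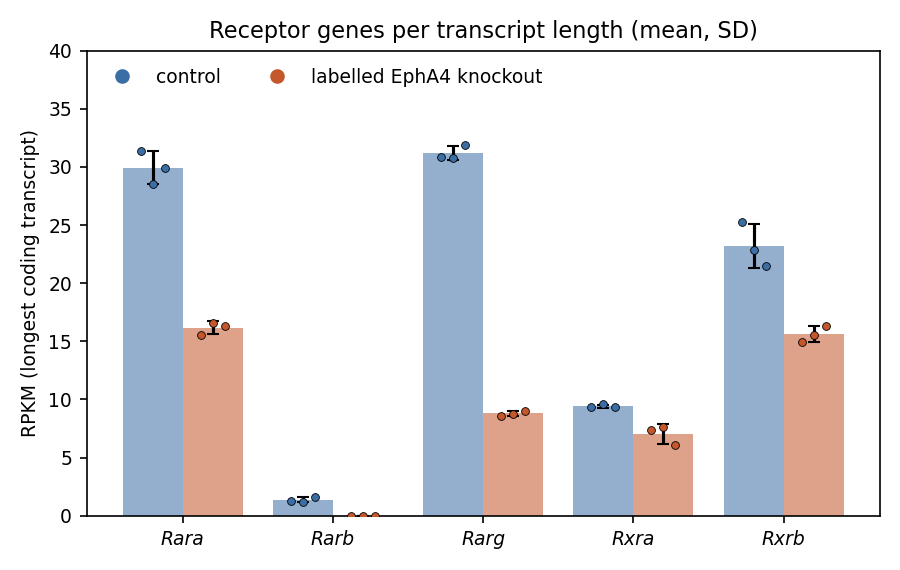
Level of 5 receptor genes in RPKM by the longest coding transcript; bars are group means, error bars the SD (n = 3) and points single libraries. Rara and Rarg overlap in control, Rarg is lower than Rara in the knockout-labelled libraries (8.80 against 16.2 RPKM), and Rxra has the smallest fold difference between the groups.

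Ordered by RPKM, the 9 genes in control ran from Crabp1 (49.9), Rarg (31.2), Rara (29.9), Rdh10 (14.9) and Rxra (9.43) to Crabp2 (1.47), Stra6 (1.46), Rarb (1.37) and Cyp26b1 (0.414). Rarg and Rara did not differ beyond their spread, nor did Crabp2, Stra6 and Rarb. In the knockout-labelled libraries the order was Rdh10 (19.4), Rara (16.2), Rarg (8.80), Rxra (7.02), Crabp2 (0.413), Cyp26b1 (0.0853) and Stra6 (0.0120), with Crabp1 and Rarb at 0. The ranges of neighbours with counts in that order did not overlap, apart from the place of Stra6 next to the genes at 0. Both orders and the ties rest on the longest transcript of each gene. By the shortest, only 111 bases for Rarg, Rarg was at 829 and Rara at 42.6 RPKM in control.

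The wider pathway was followed with 85 further genes in 4 lists. They were drawn up from textbook roles, but with earlier results of these data known, so their counts of calls are a description only. Some of the falls belong to genes that passed the filter only through their control level and so had to differ. The filter on low counts was passed by 58 of the 85 genes. Of these, 13 rose, 29 fell and 16 did not pass an adjusted p of 0.05 in edgeR, and their median log2 fold change was -0.31. Of all tested genes 38.8% were lower and 32.7% higher. Without EphA4 knockout replicate 3, 14 were higher and 30 lower.

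Among 14 further genes of uptake and storage, 7 were tested, and 2 rose and 5 fell (median log2 fold change -1.24). Fabp5 and Scarb1 were the 2 that rose, the second by 0.12 on the log2 scale; Scarb1 lost its call without a filter, without control replicate 2 and without EphA4 knockout replicate 1, which left 1 rise. Besides Rbp4, Rbp2, which encodes a cellular retinol binding protein, fell from 1.68 ± 0.614 to 0.365 ± 0.108 CPM, and Retsat, whose enzyme saturates retinol, from 7.80 ± 0.965 to 3.30 ± 0.102 CPM (SD, n = 3 each; adjusted p = 0.0013 and 0.00019 in edgeR). Among 23 further genes of synthesis and breakdown, 12 were tested, and 2 rose and 6 fell (median -0.53). The rises were 1 without EphA4 knockout replicate 1 and 0 without a filter. Dhrs9 rose 1.53-fold, from 5.50 ± 0.688 to 8.40 ± 1.30 CPM, and Rdh13 1.25-fold, from 17.6 ± 1.01 to 21.9 ± 1.57 CPM (SD, n = 3 each). Both were named after their values were seen, and exons of Rdh13 overlap Gm24605 on the same strand. Besides Dhrs3, Aldh1a3 and Aldh1a1, the alcohol dehydrogenase gene Adh7 fell from 2.73 ± 0.195 to 1.14 ± 0.0472 CPM (adjusted p = 0.0016 in edgeR). Exons of Adh7 and Retsat overlap genes on the other strand, so their reads are uncertain.

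Of 27 listed dimer partners and coregulators 25 were tested, and 9 rose, 8 fell and 8 did not pass. Their median log2 fold change was -0.01. All tested genes also went both ways, 32.7% being higher and 38.8% lower, so this mix is not particular to the list. Thra, which encodes a thyroid hormone receptor, fell from 59.6 ± 2.03 to 22.0 ± 0.183 CPM (SD, n = 3 each), with an adjusted p = 4.7e-08 in edgeR. Vdr, for the vitamin D receptor, fell from 2.44 ± 0.185 to 0.387 ± 0.294 CPM (SD, n = 3 each). It passed the filter only through its control level, so no p is given for it. The log2 fold change of Vdr, -2.65, became -3.44 without EphA4 knockout replicate 1. Nr2f2, the gene of the orphan receptor COUP-TFII, which can occupy the same direct repeats, rose 3.29-fold from 56.1 ± 4.80 to 185 ± 10.4 CPM (adjusted p = 6.4e-08 in edgeR). Crebbp, a histone acetyltransferase recruited by receptors bound to ligand, rose 2.22-fold from 44.1 ± 6.02 to 97.9 ± 4.72 CPM (adjusted p = 4.1e-06 in edgeR). Thra overlaps Nr1d1, and Nr2f2 overlaps B130024G19Rik, on the other strand.

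Of 21 known targets of retinoic acid receptors 14 were tested, and 0 rose, 10 fell and 4 did not pass, with a median log2 fold change of -0.79. Hoxb4 and Hoxb5, homeobox genes of the HoxB cluster, fell furthest. Hoxb4 went from 5.49 ± 0.262 to 0.239 ± 0.155 CPM and Hoxb5 from 13.9 ± 2.76 to 0.913 ± 0.196 CPM (SD, n = 3 each). Icam1, an adhesion molecule gene, and Btg2, an inhibitor of proliferation, fell by 2.43 and 2.04 on the log2 scale. The adjusted p was 7.1e-07 for Hoxb5 and 4.7e-06 for Btg2 in edgeR. Hoxb4 and Icam1 passed the filter only through their control level, so no p is given for them. Most of the listed targets also answer to other signals, and retinoic acid itself was not measured. Exons of Hoxb5 and Icam1 overlap genes on the other strand. The count of 0 rises was the same in DESeq2, in limma-voom and at an unadjusted p under 0.05 in edgeR.

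**Figure D4:**
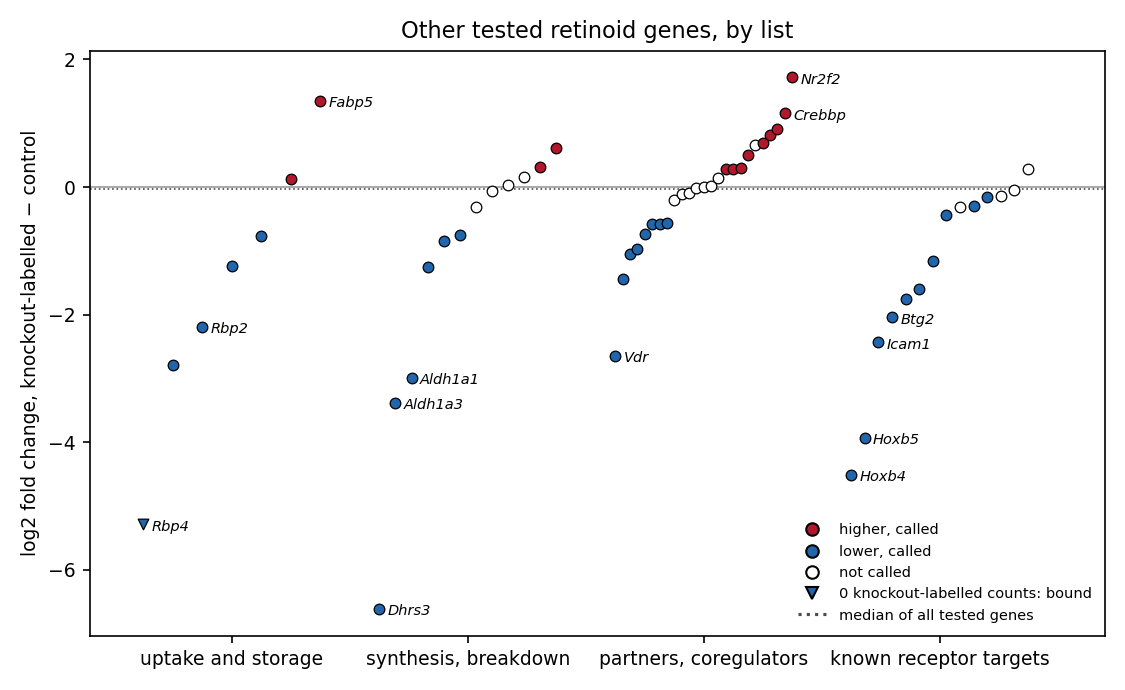
Log2 fold change (knockout-labelled minus control) of each tested gene in the 4 further retinoid lists, coloured by whether edgeR's adjusted p was under 0.05; a triangle marks a gene with 0 knockout-labelled counts at its bound, and the dotted line is the median of all tested genes (-0.04). Known receptor targets hold 10 called falls and no called rise. Partners and coregulators lie on both sides of 0, as do all tested genes (38.8% called lower and 32.7% higher).

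The genes whose pattern over the 6 libraries lay nearest to that of Crabp1, by Euclidean distance of centred log2 CPM, were the collagen gene Col5a3 (distance 0.19), the interferon-induced gene Oas2 (0.40) and the histocompatibility gene H2-Q7 (0.48), each also with 0 counts in every knockout-labelled library. Nearest to Rdh10 were Fam8a1 (0.05), Apex1 (0.06) and Wdr41 (0.07), with 1.31-fold, 1.28-fold and 1.30-fold higher levels. With 2 groups of 3 libraries, such likeness reflects mainly the difference between the groups.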

How the data were processed

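The authors deposited raw counts per gene symbol for 6 libraries. STAR and GRCm39 are named in the submitters' processing notes; the sources used here do not give the counting tool, its strand setting or the annotation. All 55418 symbols occur in GENCODE M21 (an earlier build), which gave chromosomes, overlaps and transcript lengths. The whole table was filtered with filterByExpr (15199 of 28042 genes with any count), scaled by TMM and tested in edgeR 4.0.16 (quasi-likelihood fit and test with a term for group alone, two-sided, Benjamini-Hochberg, threshold 0.05) in R 4.3.3; scripts were tested on simulated data. SEs were derived from the log2 fold change and its F statistic. Log2 CPM used a prior count of 2. Bounds and count ratios use library totals.

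The 9 genes and the lists were chosen with earlier results of these data known. Named besides the 9 were Epha4, 9 pathway genes whatever their values, the 4 largest called changes per list with at least 1 CPM in a group, the markers and 3 nearest genes for Crabp1 and Rdh10; a few of these are left out of the text. The labels do not say that replicates were separate cultures, so p-values speak only of the spread among these 6, which may be technical. Alternatives were scaling by RLE, by upper quartiles or by library size alone, testing without a filter or with 5 CPM in 3 libraries, DESeq2 1.42.0, limma-voom (limma 3.58.1), a replicate block, each library left out and the shortest transcript. Figures were drawn with matplotlib 3.10.9.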

Additional observations from a re-analysis of the deposited data

How the results depend on the processing

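All 9 retinoid genes kept their direction in every alternative in which they were tested. With a filter of 5 CPM in 3 libraries only 5 of them were tested and called, 4 of them lower, since the rest are scarce; 82.5% of all genes tested were called there. Leaving out each library in turn gave 9 called genes every time, 8 lower and 1 higher, while 63.4% to 71.9% of all genes tested were called. The other retinoid genes called ranged from 34 (5 CPM in 3 libraries) to 44 over all alternatives, against 42. With the filter of 5 CPM in 3 libraries, uptake and storage held 2 falls and synthesis and breakdown 3. Of 341 refits of the 25 other named and tested genes, 340 kept their call and direction. Many of these genes were named for large called changes in these same libraries, so this was likely beforehand. The replicate numbers do not pair the libraries: same-numbered libraries had correlations of deviations of -0.00, 0.03 and 0.01. With the replicate number as a block, 10339 genes were called in place of 10867, with all 9 retinoid genes and 42 other retinoid genes among the calls. The fitted log2 fold changes of Crabp1 and Rarb depend on how 0 counts are handled, at -13.54 and -10.31 in edgeR and -11.51 and -8.29 in limma-voom. The shortest annotated coding transcript is an extreme choice, being 111 bases for Rarg. With it the share of Rara in the RAR sum was 4.82% in control and 8.94% in the knockout-labelled libraries. That of Rarg was 93.8% and 91.1%. The order of levels between genes thus rests on the length chosen. The direction of a gene between the groups could not change, as the same length divides both. Depth limits the scarce genes, among them Crabp2, Cyp26b1, Stra6, Rarb and Cyp26a1.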

Other observations

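Keratinocyte genes that respond to retinoic acid in culture did not move in 1 direction. All tested genes also went both ways, 38.8% being lower and 32.7% higher, so counts over such short lists are a description only. Of 8 genes known to be lowered by retinoic acid, 4 were tested, and 1 rose, 2 fell and 1 did not pass. Lor, a cornified envelope gene, rose from 3.64 ± 0.649 to 9.13 ± 1.22 CPM, while Tgm1, which cross-links the envelope, fell from 10.4 ± 1.27 to 1.46 ± 0.408 CPM (SD, n = 3 each; adjusted p = 0.00026 and 7.3e-06 in edgeR's quasi-likelihood test). Ivl, the gene of the envelope protein involucrin, had 48, 15 and 27 counts in control and 0, 2 and 0 counts in the knockout-labelled libraries (log2 fold change -5.20). As Ivl passed the filter only through its control level, no p is given. Krt1, Krt2, Flg and Casp14 had 0 counts in every library.

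Of 4 keratinocyte genes known to be raised by retinoic acid, 2 rose and 2 fell, against 32.7% higher and 38.8% lower over all tested genes. Krt13 passed the filter only through its control level and Krt4 only through its level in the knockout-labelled libraries, so both had to differ. Krt13 had 123 counts over the control libraries and none in the knockout-labelled ones, a fall of at least 39.6-fold. Krt19, an abundant keratin gene of simple epithelia, fell from 1698 ± 66.8 to 667 ± 22.4 CPM (SD, n = 3 each; adjusted p = 3.0e-08 in edgeR), and Hbegf rose by a log2 fold change of 0.20. Krt4, with means of 0.167 ± 0.130 and 0.906 ± 0.111 CPM (SD, n = 3 each), was the other that rose. Ivl and Krt4 were picked out after their values were seen.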
